A study of Mus musculus with 20 samples.

Results

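The proteasome subunit genes of mouse tail-tendon tenocytes were followed over 24 h of treatment with insulin-like growth factor 1 (IGF1). They were chosen by name: every row of the count table whose gene symbol starts with Psm, a letter from a to g and a number was taken. This gave 54 of 29986 rows, of which 49 fall into subunit classes and 5 are matches outside them. The classes are 7 core alpha genes, 7 constitutive core beta genes, 5 inducible or tissue-specific core genes, 6 ATPases of the cap base, 3 other cap base genes, 8 cap lid genes, 7 assembly chaperones and 6 regulators. RNA sequencing covered 20 libraries of tenocytes from tail tendon of adult C57Bl/6 mice, 4 at each of 5 times. The 0 h group received no cytokine, and the 1, 2, 6 and 24 h groups received 100 ng/mL IGF1. The labels name no allele or transgene for any group, and do not say whether replicates came from separate mice or cultures, so p-values may measure only technical spread. Untreated cells at later times were not analysed here, so IGF1 and time since its addition cannot be told apart.

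The proteasome is the protease complex that degrades ubiquitin-tagged proteins. Its barrel-shaped core is built of alpha rings that gate the entry and beta rings that carry the cutting sites, and a cap made of a base and a lid binds, unfolds and deubiquitinates the substrate. Alternative regulators can take the place of the cap, dedicated chaperones assemble both particles, and interferon-inducible beta subunits can replace the constitutive cutting subunits in the immunoproteasome. Tenocytes are the fibroblasts that produce and turn over the collagen matrix of tendon, and IGF1 is a growth factor that stimulates matrix synthesis in them.

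The libraries held between 13734425 and 22687173 counts, of which the 54 genes took 0.317% to 0.472%. Tendon markers were high in every library, with at least 1484 CPM (counts scaled to library size) of Scx, 145 CPM of Tnmd and 17545 CPM of Col1a1, so the defining markers of the labelled cell type were present. Libraries 1 and 2 of the 0 h group carry the same description in the labels. Their counts differed by a chi-square of 9.28 per degree of freedom, within the range of 2.99 to 57.4 over the 30 replicate pairs, and they were counted separately. The fourth library at 2 h stood apart for the genes described here. It was the highest of its 4 for 41 of the 46 class members that passed the filter on low counts, and for 34.8% of all genes tested. It was the lowest for 3 of these members and for 34.2% of all genes. Its log2 CPM exceeded the mean of the other 3 by a median of 0.42 over the constitutive core genes and 0.29 over the cap genes. Over all genes tested this median was 0.006. Over all genes, its deviation fell with exonic length, from a median of 0.27 among the shortest genes to -0.28 among the longest, taking quartiles of length. Results at 2 h are therefore given with and without it. Macrophage markers were also unequal: 12 of 13 listed genes rose at 2 h, their summed level ran from 416 to 1099 CPM at 2 h against 276 to 348 CPM at 0 h, and none was at 0 in all libraries. Schwann and endothelial markers were also highest in the second 2 h library, at summed levels of 68.1 and 28.8 CPM, against at most 6.53 and 1.98 CPM at 0 h. In bulk RNA, fewer cells of a type and less RNA per cell cannot be told apart.

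IGF1-treated tenocytes carried more mRNA of most proteasome genes at 2 and 6 h. Summed over the 31 constitutive core and cap genes, the level was 2856 ± 71.1 CPM (SD, n = 4) in untreated cells and 3078 ± 88.5 after 1 h of IGF1. It was 3434 ± 384 after 2 h, 3669 ± 58.5 after 6 h and 3094 ± 50 after 24 h. The 6 h libraries lay between 3625 and 3754 CPM, all above the 0 h libraries at 2758 to 2924 CPM. Without the fourth library, the 2 h values were 3202 to 3282 CPM. Those 3 also lay above every 0 h library and below every 6 h library.

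Of the 46 class members tested, 2 rose and 0 fell at 1 h, where 6.75% of all 14420 genes tested rose and 3.88% fell. The count of 0 lower is from edgeR's quasi-likelihood test. Only Psmb9 was lower at an unadjusted p under 0.05, and DESeq2 called it, with 1 lower gene. At 2 h, 31 members rose and 0 fell, against 20.2% and 17.5% of all genes. In that comparison 1 member was lower at an unadjusted p under 0.05, and DESeq2 called 0. At 6 h, 35 rose and 2 fell, against 20.6% and 19.6%. At 24 h, 11 rose and 1 fell, against 12.7% and 13.2%. Changes of genes are given as log2 fold changes ± SE from this test, against 0 h unless another time is named. A gene was called at an adjusted p under 0.05, and 37 of the 46 changed at some time, where 63.7% of all genes did. The share of members that rose was thus above the background share at 2, 6 and 24 h and below it at 1 h. All 31 genes higher at 2 h were also higher at 6 h, where Psmb5, Psmc3, Psmg1 and Psmg3 joined them. Both comparisons use the same 0 h libraries, which favours such overlap. Library values gave a like picture at 2, 6 and 24 h. At 1 h they differed from the calls, since the share of members lying above 0 h exceeded the background share. Members whose 4 treated libraries all lay above, or all below, the 4 of 0 h numbered 10 and 1 at 1 h (10.7% and 7.23% of all genes) and 27 and 0 at 2 h (15% and 14.6%). They numbered 35 and 2 at 6 h (22.4% and 21%) and 21 and 2 at 24 h (15.4% and 16%).

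The fourth 2 h library changed these counts. Leaving it out gave 25 higher and 1 lower at 2 h, 35 and 2 at 6 h, and 21 and 1 at 24 h. At 1 h it gave 5 higher and 1 lower, and the count of 2 became 1 without 0 h library 1 or 3 or without 1 h library 2 or 3. A fit with a term for the macrophage marker level called 23 members higher at 2 h. A fit without 2 h libraries 1 and 2, where those markers were highest, called 35. That fit kept 2 h libraries 3 and 4, so library 4 had more weight in it. This library was the highest of its 2 h group for 41 of the 46 members, and its part in the count of 35 was not tested. The 6 h counts were 35 and 2 in both of these fits. Beyond these fits, the part of other cells in the 2 h result was not tested.

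**Figure D1:**
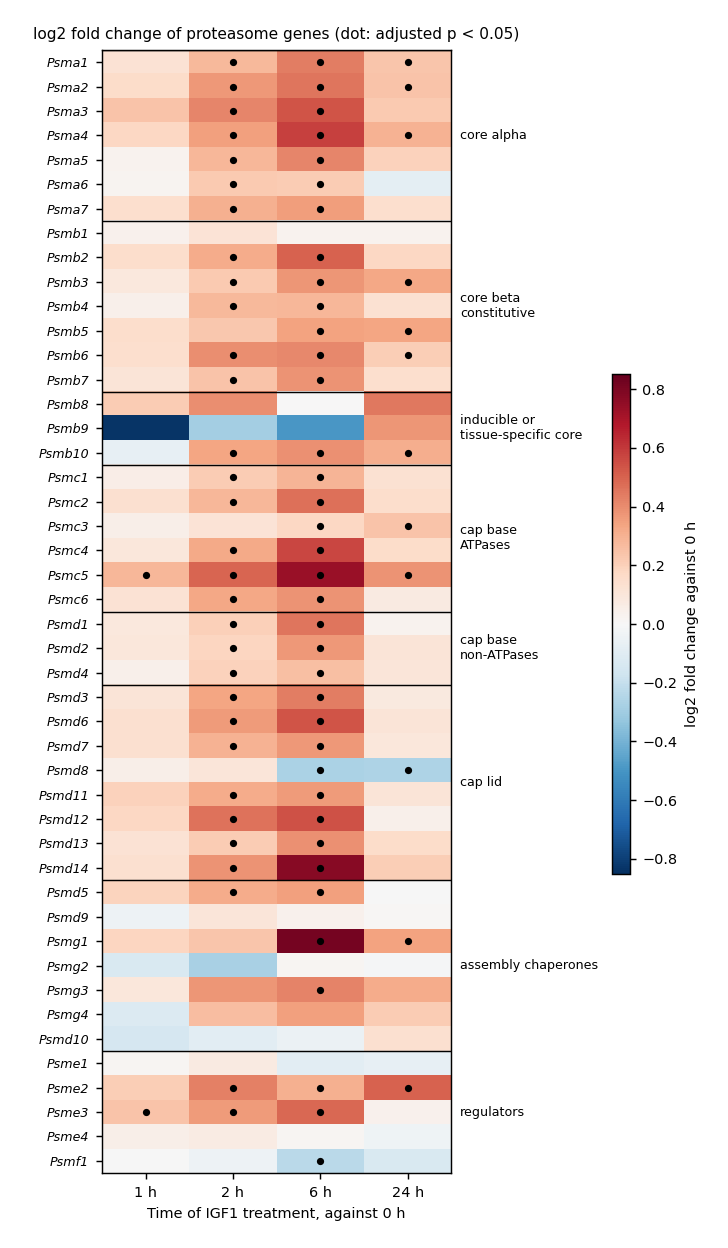
Log2 fold change of the 46 tested class members (rows, grouped by class) at 1, 2, 6 and 24 h against 0 h (columns), with colour running from blue for lower to red for higher and a dot where the adjusted p was under 0.05. The 6 h column holds 35 dots on red and 2 on blue, Psmd8 and Psmf1.

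**Figure D2:**
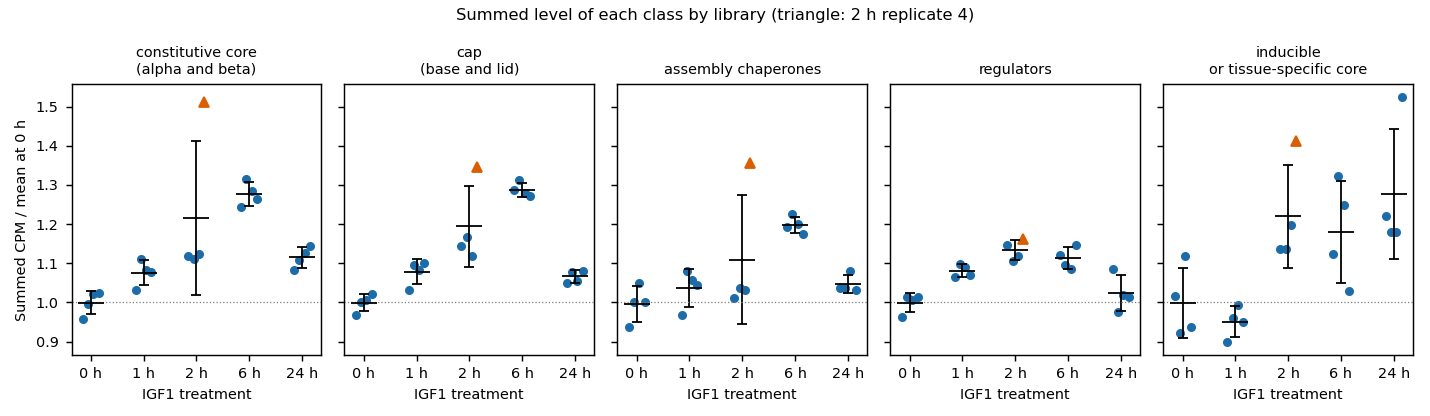
Summed CPM of each subunit class in each library (points), divided by the class's mean at 0 h, by time of treatment, with the mean and SD of 4 libraries. Core and cap means reach 1.28 and 1.29 at 6 h, and the fourth 2 h library (triangle) lies above the other 3 in every class.

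Scaled by exonic length, the 31 constitutive core and cap genes had a median level of 26.5 CPM per kb at 0 h and ran from 10 for Psmd11 to 72.6 for Psma6, a 7.26-fold spread by merged exons. The other highest genes per length were the lid gene Psmd8 at 70.9 ± 3.12 (SD, n = 4), Psmb4 at 63.8 ± 2.11, Psmc5 at 57.4 ± 3.06 and Psmc3 at 57.3 ± 1.67 CPM per kb. The last pair did not differ beyond their spread. Assembly chaperones were lower, with a median of 8.74 CPM per kb and a range of 2.24 for Psmg3 to 13.4 for Psmg2. Regulators ran from 6.11 for Psmf1 to 32.5 for Psme3. Of the inducible core genes, Psmb9 at 0.527 ± 0.0534 and Psmb8 at 1.08 ± 0.209 CPM per kb were the lowest of the 46 members tested, and Psmb10 stood at 7.04 ± 0.457. Lengths of the longest transcript in place of all exons raised the core and cap median to 48.5 CPM per kb, since the lengths used are shorter, and changed the order. By that length Psmd8 at 109 and Psmb4 at 105 CPM per kb lay above Psma6 at 85.9, Psmc3 at 82.2 lay above Psmc5 at 57.4, and Psmb5 at 18 was the lowest core or cap gene. Psmb9 and Psmb8 were the lowest class members by either length.

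**Figure D3:**
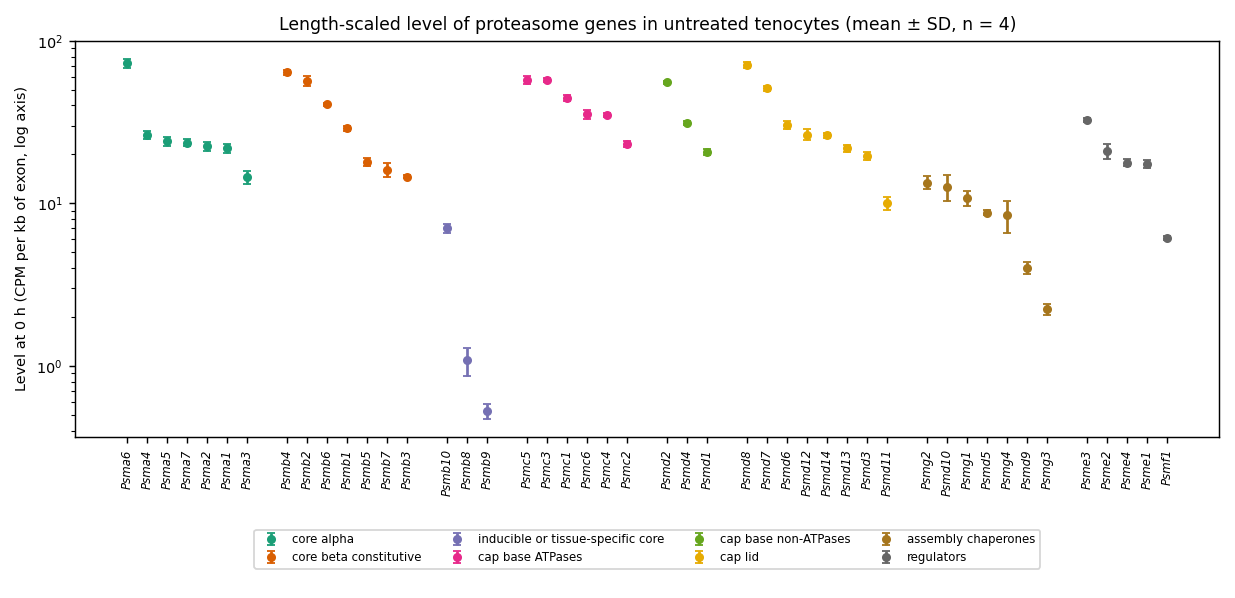
Level of each tested class member at 0 h in CPM per kb of exon on a log axis, as mean and SD of 4 libraries, ordered within its class. Core and cap genes lie between 10 and 72.6 CPM per kb, and Psmb8 and Psmb9 lie lowest.

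The alpha subunits form the gated outer rings of the core. All 7 alpha genes rose at 2 h and at 6 h, with median log2 fold changes of 0.30 and 0.43, and Psma1, Psma2 and Psma4 were still higher at 24 h. The medians over all genes tested were -0.006 at 2 h and -0.002 at 6 h, and the scaling of libraries tends to set them near 0. Psma4 measured 57.9, 64.7, 62.9 and 65.1 CPM at 0 h, 67.6, 72.8, 69 and 73.5 at 1 h, and 75.6, 70.3, 71.4 and 102 at 2 h. Psma4 then measured 91, 94.6, 92.7 and 95.7 CPM at 6 h and 76.9, 71.1, 73 and 87.1 at 24 h. Every treated library lay above every 0 h library, and the 6 h libraries formed the narrowest and, apart from the fourth 2 h library, the highest group. The gene rose by 0.58 ± 0.088 log2 units (adjusted p = 5.7e-06) at 6 h and by 0.30 ± 0.088 log2 units (adjusted p = 0.0127) at 24 h, the latter with an adjusted p of 0.07 without 24 h library 4. The 24 h calls of Psma1 and Psma2 were lost without any of 7 and of 4 single libraries, with adjusted p of up to 0.117 and 0.0807. Psma3 measured 49.8, 55.9, 58.4 and 62.4 CPM at 0 h, 61.8, 69.6, 66.3 and 70.5 at 1 h, and 70.9, 69.4, 66.4 and 95.6 at 2 h. Psma3 then measured 78.4, 84.2, 80.3 and 84.4 CPM at 6 h and 64.5, 62.9, 65.3 and 72 at 24 h. Its 6 h libraries lay above all 0 h and 1 h libraries, and the 24 h libraries lay just above those of 0 h. Psma3 rose by 0.53 ± 0.088 log2 units (adjusted p = 2.01e-05) at 6 h, and its 24 h difference of 0.23 did not pass the test (adjusted p = 0.0632). It did pass without the fourth 2 h library (0.23, adjusted p = 0.00518). Psma6 measured 81, 93.4, 94.4 and 89.4 CPM at 0 h, 90.3, 91.3, 93 and 89.3 at 1 h, and 99.1, 99.6, 86.4 and 132 at 2 h. Psma6 then measured 102, 104, 98.3 and 111 CPM at 6 h and 82.4, 85.1, 83.1 and 88 at 24 h. Psma6, the most abundant alpha gene by either length, thus changed little, its 6 h libraries lay above those of 0 h by a small margin, and its 24 h libraries overlapped them. Its 6 h change of 0.21 ± 0.084 log2 units (adjusted p = 0.0438) was lost when any of 13 single libraries was left out, with an adjusted p of up to 0.147 without 0 h library 1.

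Among the constitutive beta genes, the 3 that encode the cutting subunits rose at 6 h, and Psmb1 did not pass the test at any time. Psmb5 measured 15.9, 17.3, 15.2 and 16.2 CPM at 0 h, 16.9, 17.9, 19.3 and 17.5 at 1 h, and 15.8, 17.5, 19.5 and 23.4 at 2 h. Psmb5 then measured 19.3, 22.3, 21.1 and 19 CPM at 6 h and 18.7, 21.2, 21.9 and 19.6 at 24 h. All 6 h and 24 h libraries of Psmb5, the chymotrypsin-like subunit, lay above all 0 h libraries. The rise was 0.34 ± 0.1 log2 units (adjusted p = 0.00783) at 6 h and 0.34 ± 0.1 log2 units (adjusted p = 0.0142) at 24 h, the latter with an adjusted p of 0.0524 without 24 h library 3, and at 2 h the difference of 0.23 did not pass (adjusted p = 0.0695). Psmb6 measured 76.6, 75.3, 75 and 78.5 CPM at 0 h, 84, 89, 80.1 and 83.8 at 1 h, and 87.6, 94.5, 97.4 and 123 at 2 h. Psmb6 then measured 102, 107, 102 and 94.5 CPM at 6 h and 80.7, 89.8, 94.1 and 87.5 at 24 h. Psmb6, the caspase-like subunit, lay above its 0 h range in every treated library. It rose by 0.40 ± 0.076 log2 units (adjusted p = 0.000178) at 2 h, 0.41 ± 0.076 log2 units (adjusted p = 9.24e-05) at 6 h and 0.21 ± 0.077 log2 units (adjusted p = 0.0485) at 24 h. The 24 h call was lost without any of 14 single libraries, with an adjusted p of up to 0.144. Psmb7 measured 54.7, 52.1, 62.6 and 51 CPM at 0 h, 56.8, 65.5, 52.6 and 62.9 at 1 h, and 61.2, 60.8, 59 and 79.8 at 2 h. Psmb7 then measured 68.6, 75.1, 71.7 and 71.4 CPM at 6 h and 61.4, 62.1, 57 and 62.8 at 24 h. For Psmb7, the trypsin-like subunit, the groups separated only at 6 h, with a rise of 0.38 ± 0.086 log2 units (adjusted p = 0.000753). Its 2 h call (0.24, adjusted p = 0.027) was lost without the fourth library (0.13, adjusted p = 0.159).

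The non-catalytic beta genes divided. Psmb2 measured 68, 65, 65.2 and 75.3 CPM at 0 h, 71.4, 80.7, 76.8 and 74.2 at 1 h, and 79.3, 79, 77.8 and 104 at 2 h. Psmb2 then measured 93.2, 102, 101 and 91.9 CPM at 6 h and 68.8, 77.2, 75.6 and 87.9 at 24 h. Psmb2 libraries at 2 h and 6 h lay above all 0 h libraries and those at 24 h overlapped them, with a rise of 0.50 ± 0.084 log2 units (adjusted p = 2.17e-05) at 6 h. Psmb1 measured 129, 132, 131 and 139 CPM at 0 h, 134, 139, 135 and 136 at 1 h, and 134, 126, 132 and 184 at 2 h. Psmb1 then measured 133, 140, 135 and 133 CPM at 6 h and 135, 133, 139 and 136 at 24 h. Outside the fourth 2 h library, all 19 values of Psmb1 lay between 126 and 140 CPM. Its log2 fold change was 0.12 ± 0.077 at 2 h, -0.03 ± 0.046 at 2 h without that library, and 0.03 ± 0.077 at 6 h (adjusted p = 0.804). Psmb3 and Psmb4 rose by 0.37 and 0.28 at 6 h, and Psmb3 stayed higher at 24 h, by 0.33 (adjusted p = 0.00294). Over the 14 constitutive core genes, 12 rose at 2 h with a median of 0.28, 13 at 6 h with a median of 0.40 and 6 at 24 h with a median of 0.20. Of all genes, 20.2%, 20.6% and 12.7% rose at these times. Without the fourth 2 h library 7 of the 14 rose at 2 h, with a median of 0.17. Psma1, Psma5, Psma6, Psmb3 and Psmb7 lost their 2 h calls.

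The 6 ATPases of the cap base form the ring that unfolds substrates and threads them into the core. All 6 rose at 6 h and 5 at 2 h. Psmc5 measured 75, 84.1, 77.9 and 82.9 CPM at 0 h, 92.8, 103, 99.6 and 93.8 at 1 h, and 108, 98.5, 107 and 137 at 2 h. Psmc5 then measured 136, 139, 127 and 131 CPM at 6 h and 99.9, 101, 104 and 113 at 24 h. Psmc5 was above its 0 h range in every treated library and highest at 6 h. It rose by 0.28 ± 0.076 log2 units (adjusted p = 0.0131) at 1 h, the only core or cap gene called then, by 0.49 ± 0.076 log2 units (adjusted p = 9.65e-06) at 2 h, 0.73 ± 0.076 log2 units (adjusted p = 1.18e-08) at 6 h and 0.38 ± 0.076 log2 units (adjusted p = 0.000345) at 24 h. The 1 h call was lost without any of the 4 libraries named above, with an adjusted p of up to 0.0686. Without the fourth library its 2 h rise was 0.38 ± 0.057. Psmc4 measured 73.3, 74.2, 75 and 78.5 CPM at 0 h, 75.7, 79.2, 80 and 86.9 at 1 h, and 87.5, 92.4, 86.1 and 110 at 2 h. Psmc4 then measured 115, 112, 111 and 108 CPM at 6 h and 81.2, 87.3, 86.6 and 80 at 24 h. The 6 h libraries of Psmc4 lay apart from all 0 h and 1 h libraries, and its 24 h libraries lay just above those of 0 h. It rose by 0.57 ± 0.067 log2 units (adjusted p = 1.18e-07) at 6 h and fell by 0.41 ± 0.067 from 6 to 24 h (adjusted p = 1.94e-05). Psmc3 measured 146, 155, 151 and 146 CPM at 0 h, 148, 158, 158 and 155 at 1 h, and 159, 146, 154 and 190 at 2 h. Psmc3 then measured 170, 173, 179 and 155 CPM at 6 h and 174, 180, 165 and 189 at 24 h. Psmc3 had its highest mean at 24 h, where its libraries did not overlap those of 0 h. It rose by 0.24 ± 0.068 log2 units (adjusted p = 0.00788) at 24 h. Its 6 h call (0.18, adjusted p = 0.0371) was lost when 0 h library 1, 3 or 4 or 6 h library 1, 2 or 3 was left out, with adjusted p of 0.0606 to 0.119, and with no filter on low counts (adjusted p = 0.0717).

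Of the other base genes, Psmd1 and Psmd2 encode the scaffold proteins of the base and Psmd4 a ubiquitin receptor, and all 3 rose at 2 h and at 6 h. Psmd1 measured 142, 153, 152 and 157 CPM at 0 h, 160, 162, 159 and 162 at 1 h, and 181, 171, 175 and 168 at 2 h. Psmd1 then measured 206, 219, 190 and 213 CPM at 6 h and 157, 157, 154 and 150 at 24 h. Psmd1 libraries lay in ascending steps without overlap from 0 h through 6 h and returned into the 0 h range at 24 h. The rise was 0.46 ± 0.054 log2 units (adjusted p = 1.08e-07) at 6 h, and the fourth 2 h library was the lowest of its group. Psmd2 measured 230, 223, 227 and 217 CPM at 0 h, 229, 239, 256 and 233 at 1 h, and 250, 265, 250 and 254 at 2 h. Psmd2 then measured 289, 293, 286 and 293 CPM at 6 h and 238, 245, 239 and 244 at 24 h. Psmd2 varied little within a time and its 6 h libraries lay above all others. It rose by 0.18 ± 0.049 log2 units (adjusted p = 0.0045) at 2 h and 0.37 ± 0.049 log2 units (adjusted p = 8.13e-07) at 6 h, and from 6 to 24 h it fell by 0.26 ± 0.049 (adjusted p = 0.000122).

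The lid removes ubiquitin chains, and 7 of its 8 genes rose at 6 h while Psmd8 fell. Psmd14 measured 70.7, 74.4, 76.7 and 75.3 CPM at 0 h, 77.5, 80.9, 78.7 and 89.8 at 1 h, and 91.6, 90.7, 84.3 and 121 at 2 h. Psmd14 then measured 124, 131, 130 and 123 CPM at 6 h and 89.6, 89, 81.9 and 83.4 at 24 h. Psmd14, the deubiquitinase of the lid, lay above every 0 h library at all treated times, and its 6 h libraries lay above all libraries of other times. The gene rose by 0.77 ± 0.08 log2 units (adjusted p = 1.12e-08) at 6 h, a 1.71-fold change, and fell by 0.56 ± 0.080 from 6 to 24 h (adjusted p = 2.7e-06). At 24 h its difference of 0.21 from 0 h had an adjusted p of 0.0522, and of 0.00274 without the fourth 2 h library. Psmd12 measured 62.8, 69.8, 74.4 and 73.3 CPM at 0 h, 73, 75.8, 82.7 and 84.5 at 1 h, and 92.9, 95.7, 86.6 and 111 at 2 h. Psmd12 then measured 103, 108, 99.7 and 98 CPM at 6 h and 71.8, 69.9, 72.2 and 75.7 at 24 h. Psmd12, a scaffold subunit of the lid, was high at 2 h and 6 h and back within the 0 h range, or just above it, at 24 h. It rose by 0.46 ± 0.071 log2 units (adjusted p = 1.04e-05) at 2 h and 0.54 ± 0.071 log2 units (adjusted p = 6.56e-07) at 6 h, and without the fourth library its 2 h rise was 0.39 ± 0.063. Psmd8 measured 213, 212, 211 and 231 CPM at 0 h, 220, 229, 225 and 224 at 1 h, and 210, 243, 211 and 264 at 2 h. Psmd8 then measured 178, 173, 190 and 180 CPM at 6 h and 172, 189, 171 and 189 at 24 h. All 8 libraries of 6 and 24 h lay below all 8 libraries of 0 and 1 h. Psmd8 fell by 0.27 ± 0.065 at 6 h (adjusted p = 0.00174) and by 0.27 ± 0.065 at 24 h (adjusted p = 0.00305). From 2 to 6 h it fell by 0.37 ± 0.065 (adjusted p = 0.000114). Psmd3, Psmd6, Psmd7, Psmd11 and Psmd13 rose by 0.36 to 0.53 at 6 h, and none of them passed the test at 24 h, where Psmd13 passed without the fourth 2 h library (0.16, adjusted p = 0.013). Over the 17 cap genes, 15 rose at 2 h with a median of 0.29. At 6 h 16 rose and 1 fell with a median of 0.39, and at 24 h 2 rose and 1 fell with a median of 0.11. Of all genes, 20.2% rose at 2 h, and 20.6% rose and 19.6% fell at 6 h. At 24 h 12.7% of all genes rose and 13.2% fell, so the 24 h cap counts were near or below the background shares. Without the fourth library 14 cap genes rose at 2 h, with a median of 0.21, and Psmd4 lost its call.

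**Figure D4:**
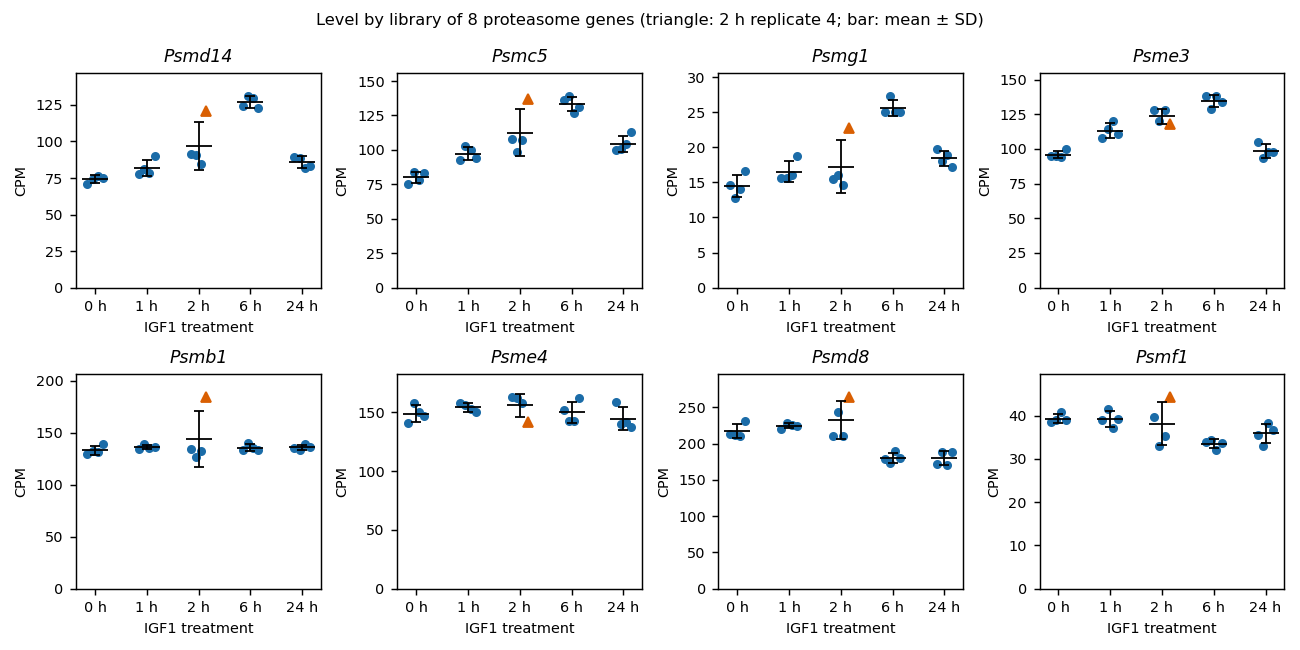
CPM of 8 proteasome genes in each library by time, with the mean and SD of 4 libraries and the fourth 2 h library as a triangle, on axes that start at 0. Psmd14, Psmc5, Psmg1 and Psme3 are highest at 6 h, Psmb1 and Psme4 are level, and Psmd8 and Psmf1 are lower at 6 h than at 0 h.

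Assembly chaperones escort unfinished core and base intermediates. Of the 7 genes, 1 rose at 2 h, 3 at 6 h and 1 at 24 h, against 20.2%, 20.6% and 12.7% of all genes. The 2 h and 24 h counts were thus near or below the background shares. Psmg1 measured 14.7, 12.8, 14.1 and 16.6 CPM at 0 h, 15.7, 15.7, 16.1 and 18.7 at 1 h, and 15.5, 16, 14.6 and 22.8 at 2 h. Psmg1 then measured 25.1, 27.3, 25 and 25.1 CPM at 6 h and 19.7, 18, 18.9 and 17.2 at 24 h. The 6 h libraries of Psmg1, which pairs with Psmg2 to start the alpha ring, lay above all libraries of other times, and those of 24 h lay above those of 0 h. It rose by 0.81 ± 0.11 log2 units (adjusted p = 1.17e-06) at 6 h, a 1.75-fold change and the largest of the 46 members then, and by 0.34 ± 0.11 log2 units (adjusted p = 0.0272) at 24 h. The 24 h call was lost without 0 h library 2 or 3 or 24 h library 1 or 3, with an adjusted p of up to 0.102. Psmg2 measured 21.5, 21.6, 26 and 24 CPM at 0 h, 21.8, 23.8, 20.2 and 19.2 at 1 h, and 15.8, 17.8, 16 and 27.4 at 2 h. Psmg2 then measured 23.3, 23, 24.3 and 23.6 CPM at 6 h and 21.3, 23.5, 23.3 and 24.5 at 24 h. Psmg2, its partner, was singled out after its values were seen. Its first 3 libraries at 2 h lay below all other libraries and the fourth above them. Its 2 h difference was -0.28 ± 0.12 (adjusted p = 0.0755) with that library and -0.50 ± 0.090 (adjusted p = 4.34e-05) without it, and at 6 h it was 0.02 ± 0.12. Psmd5 measured 62, 65.9, 63.9 and 61 CPM at 0 h, 66.2, 75.8, 74.9 and 71.5 at 1 h, and 73.6, 73.5, 75.9 and 91 at 2 h. Psmd5 then measured 79.7, 83.8, 78.5 and 79.8 CPM at 6 h and 64.7, 61.6, 63.9 and 61.6 at 24 h. Psmd5, a base chaperone, was above its 0 h range at 1, 2 and 6 h and back in it at 24 h, with a rise of 0.31 ± 0.066 log2 units (adjusted p = 0.000468) at 2 h and 0.35 ± 0.066 log2 units (adjusted p = 0.000107) at 6 h. Psmg3 was called at 6 h (0.42 ± 0.15, adjusted p = 0.0293) and lost the call without 0 h library 2, 3 or 4 or 6 h library 1 or 2, with adjusted p of 0.0555 to 0.117. Psmd9, Psmd10 and Psmg4 did not pass the test at any time.

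The regulators did not move as a group. At 6 h 2 of the 5 tested rose and 1 fell, where 20.6% of all genes rose and 19.6% fell. The median of the regulators was 0.01. Psme1 and Psme2 encode the subunits of the interferon-inducible activator ring. Psme2 measured 32.3, 37.5, 36.4 and 41.8 CPM at 0 h, 40.4, 44, 42.5 and 44.2 at 1 h, and 44.1, 47.2, 45.1 and 62.4 at 2 h. Psme2 then measured 44.8, 46.8, 46 and 45.1 CPM at 6 h and 52.7, 49, 51.4 and 56.2 at 24 h. For Psme2 the libraries of 2, 6 and 24 h lay above all 0 h libraries. It rose by 0.42 ± 0.089 log2 units (adjusted p = 0.000447) at 2 h, 0.30 ± 0.089 log2 units (adjusted p = 0.00753) at 6 h and 0.50 ± 0.089 log2 units (adjusted p = 9.63e-05) at 24 h, and without the fourth library its 2 h rise was 0.29 ± 0.071. Its reads may be shared with Psme2b, a near-identical copy with 79 counts over all libraries. Psme1 measured 40.6, 35.6, 39.6 and 37.9 CPM at 0 h, 37.2, 38.6, 39.7 and 40.1 at 1 h, and 38.4, 35.7, 36.9 and 51.6 at 2 h. Psme1 then measured 34.5, 40.9, 31.6 and 37.4 CPM at 6 h and 38.2, 35.2, 37.2 and 36.1 at 24 h. Psme1 overlapped its 0 h range at every time and stayed between -0.09 and 0.08 in log2 fold change. Psme1 thus differed from 0 h by less than the spread between libraries, and a comparison of the partner genes was not tested.

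Psme3 encodes the activator ring of the nucleus. Psme3 measured 94.6, 94.8, 94.4 and 100 CPM at 0 h, 108, 114, 120 and 111 at 1 h, and 128, 120, 128 and 118 at 2 h. Psme3 then measured 138, 129, 138 and 134 CPM at 6 h and 105, 93.1, 98 and 97.9 at 24 h. Its libraries were higher at 1, 2 and 6 h than any at 0 h and overlapped the 0 h range again at 24 h. Psme3 rose by 0.24 ± 0.055 log2 units (adjusted p = 0.00376) at 1 h, 0.36 ± 0.055 log2 units (adjusted p = 8.57e-06) at 2 h and 0.49 ± 0.055 log2 units (adjusted p = 5.64e-08) at 6 h, and fell by 0.45 ± 0.056 from 6 to 24 h (adjusted p = 2.79e-07). Unlike most members, the fourth library was its lowest at 2 h. Psme4 measured 141, 158, 150 and 147 CPM at 0 h, 158, 156, 153 and 150 at 1 h, and 163, 162, 158 and 142 at 2 h. Psme4 then measured 152, 143, 143 and 162 CPM at 6 h and 159, 140, 142 and 138 at 24 h. Psme4, a large single-chain activator, overlapped its 0 h range at all times, with log2 fold changes of -0.04 to 0.07. Psmf1 measured 38.6, 38.9, 40.8 and 39 CPM at 0 h, 38.9, 41.5, 37.1 and 39.2 at 1 h, and 39.8, 33.1, 35.4 and 44.3 at 2 h. Psmf1 then measured 33.9, 34.4, 32 and 33.6 CPM at 6 h and 35.5, 33.1, 38.3 and 36.8 at 24 h. Psmf1, described as a proteasome inhibitor, lay below its 0 h range in all 6 h and 24 h libraries. It fell by 0.23 ± 0.076 at 6 h (adjusted p = 0.017), and the 24 h difference of -0.13 did not pass (adjusted p = 0.228). The 6 h call was lost without 6 h library 3 (adjusted p = 0.053) and with no filter on low counts (adjusted p = 0.0528).

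The inducible core genes replace Psmb5, Psmb6 and Psmb7 in the immunoproteasome. Psmb10 measured 12, 11.4, 13.1 and 11.5 CPM at 0 h, 10.4, 12.7, 11 and 11.6 at 1 h, and 14.3, 14.2, 14.9 and 17.2 at 2 h. Psmb10 then measured 14.4, 17.4, 16.6 and 14.3 CPM at 6 h and 15.1, 13.8, 13.5 and 17 at 24 h. All libraries of Psmb10 at 2, 6 and 24 h lay above those of 0 h and 1 h. It rose by 0.34 ± 0.1 log2 units (adjusted p = 0.0113) at 2 h, 0.39 ± 0.1 log2 units (adjusted p = 0.0034) at 6 h and 0.31 ± 0.1 log2 units (adjusted p = 0.0281) at 24 h, and without the fourth library its 2 h rise was 0.27 ± 0.11 (adjusted p = 0.048). The 24 h call was lost without 0 h library 2 or 4 or 24 h library 1 or 4, with an adjusted p of up to 0.123. Psmb9 measured 1.95, 1.73, 2.19 and 1.85 CPM at 0 h, 1.25, 1.27, 0.917 and 0.886 at 1 h, and 1.44, 1.21, 1.78 and 1.89 at 2 h. Psmb9 then measured 1.38, 2.04, 1.13 and 0.945 CPM at 6 h and 1.6, 1.93, 3.03 and 3.42 at 24 h. All 1 h libraries of Psmb9 lay below its 0 h range, on 14 to 53 counts per library over the study. The 1 h difference was -0.83 ± 0.29 (adjusted p = 0.0615 by edgeR's quasi-likelihood test), which DESeq2 called, and from 6 to 24 h it rose by 0.87 ± 0.28 (adjusted p = 0.0149). That rise was lost without 6 h library 4 or 24 h library 3 or 4, with an adjusted p of up to 0.0742, and without the fourth 2 h library the 1 h difference passed (adjusted p = 0.0449). Psmb8 measured 3.75, 3.0, 4.59 and 3.22 CPM at 0 h, 4.1, 2.99, 5.59 and 4.11 at 1 h, and 4.45, 4.43, 4.55 and 5.74 at 2 h. Psmb8 then measured 3.9, 3.78, 4.19 and 2.68 CPM at 6 h and 4.74, 4.89, 4.17 and 6.0 at 24 h. Psmb8 overlapped its 0 h range at every time and was not called. The macrophage markers were highest in the first and second 2 h libraries. The fits with a macrophage term and without those libraries are given above only as counts over the members. Beyond these fits, the part of other cells in the values of these genes was not tested.

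The log2 ratio of each inducible gene to its constitutive counterpart was followed in CPM, so that its shift over time, not its level, can be read. Psmb9 to Psmb6 moved from -5.31 ± 0.16 (SD, n = 4) at 0 h to -6.30 ± 0.24 at 1 h, -6.00 ± 0.22 at 2 h and -6.27 ± 0.41 at 6 h, and stood at -5.21 ± 0.47 at 24 h. All 12 libraries of 1 to 6 h lay below those of 0 h, and those of 24 h overlapped them. Psmb10 to Psmb7 shifted less, from -2.20 ± 0.044 at 0 h to -2.38 ± 0.091 at 1 h, -2.20 ± 0.10 at 6 h and -2.04 ± 0.12 at 24 h. Psmb8 to Psmb5 was -2.17 ± 0.34 at 0 h, -2.51 ± 0.24 at 6 h and -2.05 ± 0.28 at 24 h, with overlapping libraries throughout.

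**Figure D5:**
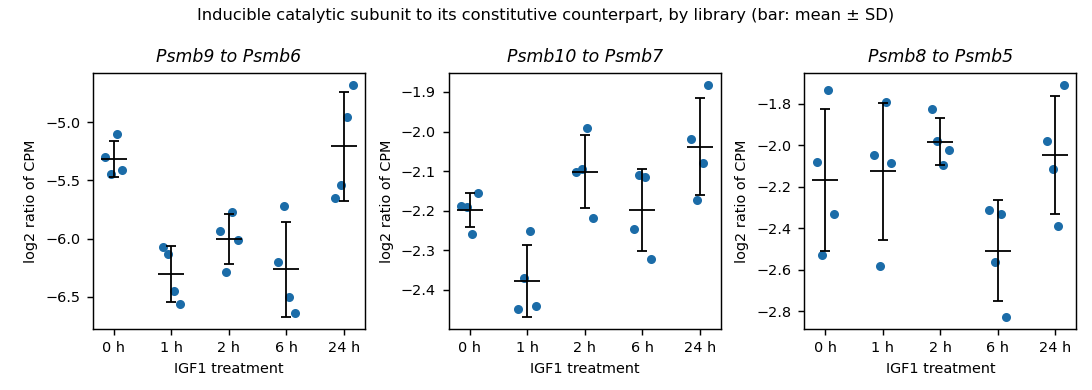
Log2 ratio of CPM between each inducible cutting subunit and its constitutive counterpart in each library, with the mean and SD of 4 libraries, by time. The Psmb9 to Psmb6 ratio is lower in all 1, 2 and 6 h libraries than in the 0 h libraries.

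Summed core and cap levels moved in near proportion up to 6 h, and the core to cap ratio was higher at 24 h than at 0 h. The ratio of summed core to summed cap CPM was 0.512 ± 0.00535 (SD, n = 4) at 0 h and 0.511 ± 0.00713 at 1 h. It was 0.519 ± 0.0384, 0.508 ± 0.00892 and 0.535 ± 0.0101 at the later times of 2, 6 and 24 h. The 24 h libraries, at 0.526 to 0.545, lay above the 0 h libraries at 0.506 to 0.519, and the 6 h libraries, at 0.495 to 0.514, overlapped them. The fourth 2 h library, at 0.574, was the highest of all 20, and the other 3 of its group were 0.487 to 0.514. Summed cap CPM was 2434 ± 33.7 at 6 h and 2016 ± 30.0 at 24 h, or 1.29 and 1.07 times the 0 h level. The core stood at 1.28 and 1.11 times its 0 h level. Regulators summed to 1.11 times the 0 h level at 6 h and 1.02 times at 24 h, and chaperones to 1.20 and 1.05 times. Differences between classes were not tested. Over all genes the median change at each time was within 0.006 of 0, which the scaling of libraries favours by construction.

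Between successive times, 7 members rose and 0 fell from 1 to 2 h, against 7.5% and 8.84% of all genes. Of library ranges, 7 lay above and 0 below (6.52% and 8.76% of all genes). None was lower at an unadjusted p under 0.05 and DESeq2 called 0 lower and 13 higher. This count varied, with 4 to 16 higher members when single libraries were left out: 4 without 1 h library 1, 14 without 2 h library 1, 16 without 2 h library 3 and 4 higher and 1 lower without 2 h library 4. From 2 to 6 h, 7 rose (Psmc4, Psmc5, Psmd1, Psmd2, Psmd13, Psmd14 and Psmg1) and Psmd8 fell, against 13.6% and 13.7%. The count of 7 was thus near the background share. Psmc5 lost its call from 2 to 6 h without 2 h library 2 (adjusted p = 0.072) and Psmd13 without any of 6 single libraries. Library ranges of 5 members lay above and of 2 below (13% and 11%). Without the fourth 2 h library 24 rose. The single lower member became 2 without 2 h library 2 or 3. From 6 to 24 h, 24 fell and Psmb9 rose, against 18.2% and 17.6%. Library ranges of 27 lay below and of 1 above (21.3% and 19.8%). The counts were 29 and 2 without the fourth 2 h library. All 24 had been higher at 6 h than at 0 h. Both comparisons use the same 6 h libraries, which favours such overlap. The mean was highest at 6 h for 34 of the 46 members, at 2 h for 6, at 24 h for 5 and at 0 h for 1. At 24 h, Psma1, Psma2, Psma4, Psmb3, Psmb5, Psmb6, Psmb10, Psmc3, Psmc5, Psme2 and Psmg1 were still above 0 h. This count of 11 became 7 without 0 h library 2 and 6 without 24 h library 3 or 4.

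The remaining matches carried few counts. Psma8, a core alpha gene of the testis, had at most 9 counts in a library, and Psmb11, the core beta gene of the thymus, at most 4, with 0 counts in 15 of 20 libraries. Psme2b and the pseudogenes Psmb5-ps, Psmb6-ps, Psmb6-ps2 and Psmb7-ps2 had at most 7 counts and were not tested. Psmc3ip, which matches the name pattern but is not a subunit, rose by 0.62 ± 0.24 at 6 h (adjusted p = 0.0403) and 0.74 ± 0.24 at 24 h (adjusted p = 0.0245), on 21 to 56 counts per library. Its 6 h call was lost in 7 of the fits without 1 library, with adjusted p of up to 0.101, and with no filter on low counts. Its 24 h call was lost without 0 h library 1 or 24 h library 2 or 4, with an adjusted p of up to 0.108, and with no filter.

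Promoter windows show which letters the members that moved most carry upstream of their start. Windows of 250 bases before to 50 after the start (RefSeq, GRCm38.p6) were matched by symbol for 40 of the 47 tested matches, and Psmb1, Psmb2, Psmb7, Psmc3, Psmd3, Psmd7 and Psmg2 had none. The core of the antioxidant response element, TGACNNNGC on either strand, is the sequence read by the factors Nfe2l1 and Nfe2l2, which are known to drive proteasome genes. It stood in 6 of the 43 member windows (14%) and in 12.4% of all 32851 windows. The sites are shown 5′ to 3′ on the strand of the motif, with the element in capitals and neighbouring bases in lower case, and lie at chr14:54618026-54618050 for Psmb5, chr11:70525340-70525364 for Psmb6, chr14:45329589-45329613 for Psmc6, chr11:107479278-107479297 for Psmd12, chr5:123228151-123228175 for Psmd9 and chr11:30771760-30771784 for Psme4. The motif was on the strand of the gene for Psmb5 (gene on the minus strand), Psmb6 and Psmd9 (plus), and on the opposite strand for Psmc6, Psmd12 and Psme4 (genes on plus).
Psmb5: tgaagttgTGACGTCGCggcgttgc
Psmb6: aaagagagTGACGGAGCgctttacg
Psmc6: gcaatgccTGACTTAGCtactggct
Psmd12: ggcaaatgTGACACAGCaga
Psmd9: ctagccggTGACCCCGCccacttcc
Psme4: tcttctggTGACGCTGCagccgcag

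Of these 6 genes, Psmb5, Psmb6, Psmc6 and Psmd12 rose at 6 h, and Psmd9 and Psme4 did not pass the test at any time. The CCAAT box, as CCAAT on either strand, was in 14 of the 43 member windows (32.6%) against 37.4% of all, and the palindromic E-box CACGTG in 4 (9.3%) against 7.15%. A match describes the letters in a window and no binding was measured.

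The bases from 250 to 51 before the start are shown for Psmd14 and Psmc5, the cap genes that rose most, and for Psmd8, the cap gene that fell, with any of the 3 motifs in capitals. Psmd14 (ENSMUSG00000026914) lies at chr2:61711694-61800376 (plus strand, mm10), Psmc5 (ENSMUSG00000020708) at chr11:106256154-106263120 (plus strand) and Psmd8 (ENSMUSG00000030591) at chr7:29174188-29180701 (minus strand). The windows printed are chr2:61711444-61711643, chr11:106255935-106256134 and chr7:29180724-29180923, each read on its gene's strand. They are counted from the RefSeq start, which for Psmc5 and Psmd8 differs from the start in the gene coordinates above.
Psmd14: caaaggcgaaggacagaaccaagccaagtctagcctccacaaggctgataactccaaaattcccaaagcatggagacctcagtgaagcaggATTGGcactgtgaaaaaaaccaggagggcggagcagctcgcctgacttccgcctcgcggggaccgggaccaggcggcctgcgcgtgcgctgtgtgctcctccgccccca
Psmc5: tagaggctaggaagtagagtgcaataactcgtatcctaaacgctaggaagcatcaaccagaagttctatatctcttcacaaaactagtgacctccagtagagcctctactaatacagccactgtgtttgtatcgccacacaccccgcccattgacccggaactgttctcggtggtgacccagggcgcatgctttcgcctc
Psmd8: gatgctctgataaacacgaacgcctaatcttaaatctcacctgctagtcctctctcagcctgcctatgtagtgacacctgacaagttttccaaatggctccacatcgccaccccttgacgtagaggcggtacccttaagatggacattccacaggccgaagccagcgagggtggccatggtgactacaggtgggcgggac

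The stretch of Psmd14 holds 1 CCAAT box on the opposite strand, and those of Psmc5 and Psmd8 hold none of the 3 motifs. The absence of these letters from a window says nothing of the factors.

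Other genes of the ubiquitin and proteasome pathway were followed from a list of 33, of which 31 were in the table and tested. At 1 h 3 rose and 4 fell, where 6.75% and 3.88% of all genes did, and at 2 h 13 rose and 7 fell, against 20.2% and 17.5%. At 6 h 15 rose and 4 fell, against 20.6% and 19.6%, with a median log2 fold change of 0.18. At 24 h 4 rose and 3 fell, against 12.7% and 13.2%, so the 24 h counts were near or below the background shares. Several partners of the complex rose. Sem1, the small lid subunit outside the naming pattern, went from 63.2 ± 6.18 CPM (SD, n = 4) at 0 h to 91.6 ± 13.4 at 2 h, and at 6 h it stood at 87.5 ± 4.78 CPM, a rise of 0.47 ± 0.095 (adjusted p = 0.000276). The core maturation factor Pomp rose by 0.45 ± 0.074 (adjusted p = 2.03e-05) and the deubiquitinase Usp14 by 0.51 ± 0.077 (adjusted p = 6.65e-06) at 6 h. Uchl5, the other deubiquitinase of the cap, rose by 0.45 ± 0.095 at 24 h (adjusted p = 0.000588). Adrm1, a ubiquitin receptor of the base, rose by 0.50 ± 0.078 at 2 h (adjusted p = 1.16e-05) and fell by 0.22 ± 0.080 at 24 h (adjusted p = 0.0405).

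Ubb, which encodes ubiquitin, and the muscle ubiquitin ligases Trim63 and Fbxo32 fell. The level of Ubb fell by 0.76 ± 0.074 at 1 h (adjusted p = 1.76e-08) and stood at 166 ± 12.8 CPM at 24 h against 162 ± 1.68 at 0 h. Trim63 fell by 1.44 ± 0.20 at 2 h (adjusted p = 2.31e-06) and Fbxo32 by 1.78 ± 0.44 at 6 h (adjusted p = 0.00381). Of the transcription factors of proteasome genes, Nfe2l1 fell by 0.16 ± 0.062 at 2 h (adjusted p = 0.0433) and Nfe2l2 rose by 0.27 ± 0.064 at 2 h (adjusted p = 0.00144). Neither passed the test at 6 h.

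Antigen presentation genes work with the immunoproteasome. Of 13 tested, 1 rose and 0 fell at 1 h (6.75% and 3.88% of all genes), and 0 rose and 1 fell at 2 h (20.2% and 17.5%). At 6 h 2 rose and 4 fell (20.6% and 19.6%), and at 24 h 2 rose and 2 fell (12.7% and 13.2%). With so few genes, the 24 h counts were near the background shares, and the list was not tested against the proteasome genes. For the counts of 0 by edgeR's quasi-likelihood test, 0 were lower at 1 h and 0 higher at 2 h at an unadjusted p under 0.05, and DESeq2 also called 0 in each. Tap1, the peptide transporter, rose by 0.63 ± 0.10 at 24 h (adjusted p = 2.51e-05), as did its regulator Nlrc5 by 0.48 ± 0.16 (adjusted p = 0.0239). Irf1 rose by 0.49 ± 0.11 at 1 h (adjusted p = 0.00293) and fell by 0.46 ± 0.11 at 2 h (adjusted p = 0.00202). The class I gene H2-D1 fell by 0.28 ± 0.063 at 6 h (adjusted p = 0.000623).

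Exons of 7 matches overlap those of a gene on the opposite strand, and whether counting used strand is not stated. The overlap covers 11.8% of the exonic length of Psmb7 (Nek6), 10.1% of Psmd13 (Sirt3), 8.25% of Psmc3 (Slc39a13), 5.79% of Psmb9 (Tap1), 3.47% of Psmd1 (Htr2b), 0.634% of Psme1 (Emc9) and 21.2% of Psmc3ip (Mlx). Values of these genes may hold reads of the partner.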

How the data were processed

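RNA sequencing counts per gene were deposited by the authors as 1 table of 29986 genes in 20 libraries, with 13734425 to 22687173 counts per library. Per the submitters' processing notes, FastQC, STAR and edgeR were used with the mm10 build; versions, annotation and strand setting are not stated. The authors' own edgeR comparisons were not used.

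Whole counts were scaled by TMM in edgeR 4.0.16 (R 4.3.3, limma 3.58.1). filterByExpr kept 14420 genes holding 99.9% of counts. All 20 libraries entered 1 quasi-likelihood fit with time as the group, and p-values were adjusted by Benjamini-Hochberg over all genes kept. Errors of log2 fold changes are approximate standard errors, derived from the quasi-likelihood F value as the absolute change over the root of F. The prior count of 2 applies to log2 CPM and not to the fold changes. Values are CPM, listed in the order of replicates 1 to 4, and per kb of merged exon where genes are compared. Members are rows matching the name pattern. Any member may be named, with values in every library for the highest at 0 h and the most changed members of each class, and for all cutting subunits and regulators. The members and lists were chosen with earlier results of these data known. DESeq2 1.42.0, RLE scaling, other filters, a replicate block, a macrophage term and leaving out libraries were alternatives. The fit was tested on simulated counts for 6 h against 0 h over 14233 genes, with 7 false calls. It recovered 20% of genes changed 1.25-fold, 66% at 1.5-fold, 64% at 2-fold and 78% at 0.5-fold. The changed genes were drawn from all genes kept, so these shares do not describe the proteasome genes.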

Additional observations from a re-analysis of the deposited data

Results flagged for a closer look

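In 155 groups of 4 libraries, for the 31 members examined in this way, 17 groups held a library far from the other 3. Psmg2, whose libraries are also given above, was not among these 31. Chance gives about 1 in 20 groups, or 7.8 here. The fourth 2 h library accounted for 13 of the 17, and in each it was high. For core genes it stood at 131 CPM for Psma2 (others 96.2 to 100), 95.6 for Psma3 (66.4 to 70.9), 102 for Psma4 (70.3 to 75.6), 184 for Psmb1 (126 to 134), 104 for Psmb2 (77.8 to 79.3), 79.8 for Psmb7 (59 to 61.2) and 5.74 for Psmb8 (4.43 to 4.55). For cap genes it stood at 173 CPM for Psmc2 (131 to 135) and 117 for Psmd4 (93.3 to 97). It also stood at 91 CPM for Psmd5 (73.5 to 75.9), 22.8 for Psmg1 (14.6 to 16), 51.6 for Psme1 (35.7 to 38.4) and 62.4 for Psme2 (44.1 to 47.2). The part of gene length, with which this library's deviation moved, was not tested. The other 4 were the fourth 0 h library for Psmd8 at 231 CPM (211 to 213) and for Psme3 at 100 CPM (94.4 to 94.8), the fourth 1 h library for Psmg1 at 18.7 CPM (15.7 to 16.1), and the second 6 h library for Psmg1 at 27.3 CPM (25 to 25.1).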

How the results depend on the processing

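At 6 h (35 higher, 2 lower), DESeq2 gave 35 and 2, and leaving out 1 library gave 32 to 35 higher and 1 to 2 lower. With no filter on low counts 1 was lower at 6 h. At 1 h (2 higher, 0 lower), no filter gave 1 higher, a fit of only the 8 libraries compared 4, and DESeq2 1 lower, and leaving out 1 library gave 1 to 5 higher and 0 to 1 lower. At 2 h (31 and 0), the 8 libraries gave 20 higher, no filter 1 lower, and leaving out 1 library 25 to 32 higher and 0 to 1 lower. At 24 h (11 higher), the 8 libraries gave 22 and leaving out 1 library 6 to 21. From 1 to 2 h (7 higher), RLE scaling gave 11, no filter 12, a minimum of 1 CPM 12, DESeq2 13, the 8 libraries 0, the fit without the first and second 2 h libraries 20, the macrophage term 1, and leaving out 1 library 4 to 16 higher and 0 to 1 lower. From 2 to 6 h (7 higher, 1 lower), the 8 libraries gave 3 higher, the fit without the first and second 2 h libraries 4 higher and 4 lower, and leaving out 1 library 5 to 24 higher and 1 to 2 lower. From 6 to 24 h (1 higher, 24 lower), the 8 libraries gave 3 higher, and leaving out 1 library 0 to 2 higher and 20 to 29 lower. Over all genes, the macrophage term gave 3181 calls at 2 h (5443 without it) and 1147 from 1 to 2 h (2357), and the 8 libraries gave 776 from 1 to 2 h and 2569 from 2 to 6 h (3944). Median levels by longest transcript were 48.5 CPM per kb for core and cap genes, 1.91 for inducible genes, 12.9 for chaperones and 23 for regulators, against 26.5, 1.08, 8.74 and 17.8 by merged exons, since the lengths used are shorter. For the other settings, those that leave out libraries or genes test fewer of them by construction, and otherwise the cause was not tested. The fit without 2 h libraries 1 and 2 kept 2 h libraries 3 and 4, so library 4 had more weight in it.

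Values reversed for Rps27a from 2 to 6 h without the fourth 2 h library (0.16 against -0.02, with a range of -0.10 to 0.16 over the fits without 1 library) and for Fbxo32 from 1 to 2 h without the first and second 2 h libraries (-0.91 against 0.47); the cause was not tested. Same-numbered libraries did not deviate together (correlations of -0.17 to 0.126). With so few libraries per time this cannot exclude pairing by replicate number, which the labels do not state. With the replicate block 3, 31, 35 and 12 members were higher at 1, 2, 6 and 24 h, 10 from 1 to 2 h and 9 from 2 to 6 h. Depth limits Psmb9 and Psmb8, with at least 14 and 51 counts per library.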
